A study of Rattus norvegicus with 24 samples.

Results

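The Nrf2 antioxidant response was followed through 9 genes, namely Nfe2l2, Keap1, Hmox1, Nqo1, Txnrd1, Txn1, Srxn1, Sod1 and Sod2, in left kidneys from 24 rats, each a male of the PKD/Mhm (Cy/+) strain. The genes were taken by name, and each of the 9 was found once, by its rat Entrez identifier, among the 17334 genes measured. The identifiers are 83619 (Nfe2l2), 117519 (Keap1), 24451 (Hmox1), 24314 (Nqo1), 58819 (Txnrd1), 116484 (Txn1), 296271 (Srxn1), 24786 (Sod1) and 24787 (Sod2). The rats were heterozygous for a missense change in Anks6, which gives slowly growing kidney cysts, were told from non-cystic animals by palpation, and were 8 months old. The untreated Cy/+ animals (Ctrl, n = 6) were compared with Cy/+ animals given monthly, for 6 months, conditioned medium (CoCM, n = 6), ABCB5+ cells into the peritoneum (i.p. ABCB5+, n = 6) or ABCB5+ cells into a vein (i.v. ABCB5+, n = 6).

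ABCB5+ cells are stromal cells taken from human skin, and the conditioned medium came from growing them together with macrophages made from THP-1, a human monocytic line, under interferon gamma and lipopolysaccharide. The sources give its route both as intraperitoneal and as intravenous. Non-cystic rats and animals injected with a vehicle were not analysed here, so the comparisons are among cystic kidneys. RNA came from whole kidney tissue, in which fewer cells of a type and less RNA per cell cannot be told apart. The Ctrl animals were numbered 1 to 24 and the treated animals 26 to 43, so any effect of the order of handling cannot be told apart from treatment against Ctrl.

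Nrf2, the transcription factor encoded by Nfe2l2, is held in the cytoplasm by Keap1, an adaptor that presents it to a Cul3 ubiquitin ligase for destruction. Oxidants and electrophiles modify cysteines of Keap1, Nrf2 then escapes, enters the nucleus and, paired with a small Maf protein, binds antioxidant response elements near its target genes. The targets make and recharge thioredoxin and glutathione, break down heme and detoxify quinones. Regulation of Nrf2 is mainly through protein stability, which RNA does not measure, so the targets rather than Nfe2l2 itself are usually read as the output of the pathway. Sod1 and Sod2 remove superoxide in the cytosol and the mitochondria and are less strictly tied to Nrf2 than Nqo1, Txnrd1 or Srxn1.

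The core of the antioxidant response element, the letters through which Nrf2 reaches its targets, was looked for in the promoters of the members. RefSeq promoter windows of 300 bases (250 before the gene start and 50 after it, rat build GRCr8) were read for the 8 members other than Hmox1, 9 windows in all, with 2 starts for Txnrd1. The core TGACNNNGC, or GCNNNGTCA on the other strand, was present in 3 of these 9 windows (33.3%), against 4038 of 33469 windows of all genes (12.1%). The windows with a match were those of Sod2, Nfe2l2 and 1 of the starts of Txnrd1. The 2 upstream matches are given as the 250 bases before the gene start on the gene's own strand, 5′ to 3′, with the core in capitals. The Sod2 window is chr1:50050169-50050418, minus strand, and its match starts 35 bases before the gene start. The Txnrd1 window is chr7:22755905-22756154, minus strand, and its match starts 78 bases before the gene start.
Sod2: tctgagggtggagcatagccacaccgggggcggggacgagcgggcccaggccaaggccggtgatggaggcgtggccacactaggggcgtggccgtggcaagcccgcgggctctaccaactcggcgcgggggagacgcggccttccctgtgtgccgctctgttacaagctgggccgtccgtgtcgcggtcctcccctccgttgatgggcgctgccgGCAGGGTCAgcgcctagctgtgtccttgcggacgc
Txnrd1: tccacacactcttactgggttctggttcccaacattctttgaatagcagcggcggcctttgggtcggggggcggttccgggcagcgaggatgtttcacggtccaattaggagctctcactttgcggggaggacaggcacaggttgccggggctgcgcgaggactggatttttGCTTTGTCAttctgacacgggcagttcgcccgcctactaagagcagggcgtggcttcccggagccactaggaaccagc
The match of Nfe2l2, TGACGCCGC, begins 38 bases after the gene start. The other start of Txnrd1 and the windows of Txn1, Sod1, Srxn1, Keap1 and Nqo1 held no such letters. Elements farther than 250 bases upstream were not looked for, so these genes may hold one outside the window. A match is a description of the letters and not a bound site.

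Each library held between 9304630 and 14125457 estimated counts. Values are given as CPM, counts scaled to a common library size with TMM factors, when animals are compared, and as TPM, which also corrects for transcript length, when genes are compared. The lowest estimated count of a member in any animal was 45, for Hmox1, and the lowest count of Nqo1 was 84.

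A set of 4 animals stood apart from the other 20 in cell type markers. They were CoCM animal 39, i.p. ABCB5+ animal 38 and i.v. ABCB5+ animals 36 and 37. Their summed CPM of 6 injured tubule markers (Havcr1, Lcn2, Spp1, Krt18, Krt20 and Vcam1) lay between 380.6 and 610.7, against 6931 to 13890 in the other 20. Spp1, which encodes osteopontin, was at 370.1, 425.8, 640.5 and 669.5 CPM in animals 39, 38, 36 and 37, against 6596 to 13000 CPM in the other 20. The summed proximal tubule markers (6 genes) were 12740, 9631, 15540 and 15960 in animals 39, 38, 36 and 37, and 2582 to 9570 in the others. The summed macrophage markers (7 genes) were 49.69, 91.35, 103.9 and 127.6 in the same order, and 270.5 to 801.3 in the others. No marker of these lists was at 0 in every animal. Since these animals were found from measured values, they are given here animal by animal, and the comparisons of the members with Ctrl are also given without them.

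By abundance per transcript length, the members formed a graded series from Txn1 down to Nqo1. Txn1, the thioredoxin that reduces protein disulfides, had the highest level, with 2203 ± 362 TPM in Ctrl (SD, n = 6). Sod1, the copper and zinc superoxide dismutase, followed with 918 ± 263 TPM, and was below Txn1 in 24 of 24 animals. These 2 transcripts are short, and their effective lengths were 6.04% and 22.8% of that of the median gene, so their TPM rests heavily on the length correction.

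Sod2, the mitochondrial manganese superoxide dismutase, and Nfe2l2 came next and were not separated. Sod2 was at 161 ± 19.0 TPM and Nfe2l2 at 158 ± 19.0 TPM in Ctrl, and Sod2 was the higher of the pair in 16 of 24 animals. Txnrd1, the cytosolic thioredoxin reductase that recharges Txn1, was at 66.6 ± 10.4 TPM. Keap1 was at 30.1 ± 3.74 TPM, below Txnrd1 and above Srxn1 in 24 of 24 animals.

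The 3 lowest members were Srxn1, Hmox1 and Nqo1. Srxn1, the sulfiredoxin that repairs overoxidized peroxiredoxins, was at 17.1 ± 3.44 TPM in Ctrl. Hmox1, the inducible heme oxygenase, was at 20.4 ± 4.13 TPM in Ctrl, but over all 24 animals the median of Srxn1 was the higher, 18.3 against 16.8 TPM, and 16 of 24 animals had more Srxn1. Nqo1, the quinone reductase often used as a readout of Nrf2, had the lowest level, 9.49 ± 1.13 TPM, and was below Hmox1 in 20 of 24 animals. The plot of TPM by member shows this order, with Sod2 beside Nfe2l2 and Srxn1 beside Hmox1.

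**Figure D1:**
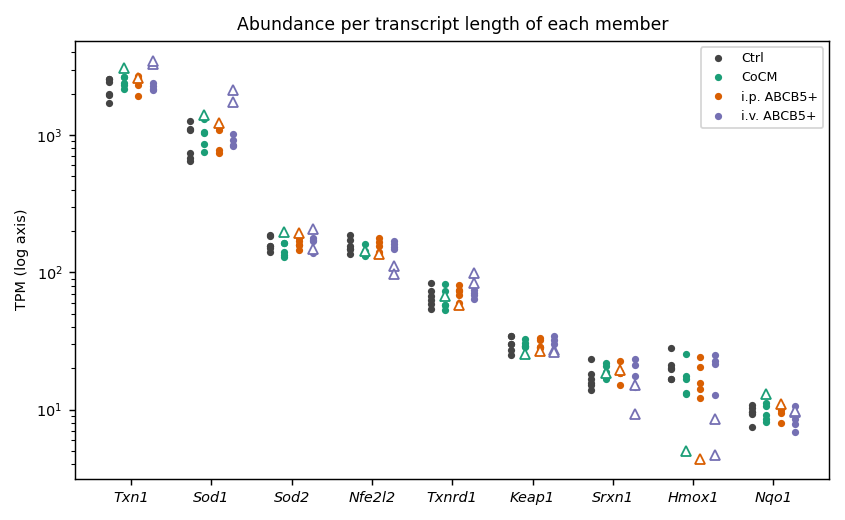
Abundance of the 9 members in TPM (log axis) in each of 24 animals, coloured by group, with open triangles for animals 36, 37, 38 and 39. The medians fall from 2422 TPM for Txn1 to 9.63 TPM for Nqo1, and Hmox1 spreads the most, with 3 triangles below 5 TPM.

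The members differed in how much they varied among untreated kidneys. Nfe2l2 and Keap1, the sensor pair, were the most even, with a highest value 1.13 and 1.15 times the lowest among the 6 Ctrl animals on the CPM scale. Nqo1, Sod2 and Srxn1 varied 1.40, 1.42 and 1.43 times. Txn1 varied 1.61 times, Txnrd1 1.63 times, Hmox1 1.89 times and Sod1 2.06 times. Over all 24 animals the ratio reached 5.28 for Hmox1 and 4.58 for Sod1, while it stayed at 1.35 for Nfe2l2 and 1.37 for Keap1.

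The first question was whether the conditioned medium or the cells changed the members against Ctrl. No member passed an adjusted p of 0.05 in any treated group against Ctrl (0 of 9 in each of the 3, edgeR quasi-likelihood F-test with Benjamini-Hochberg adjustment over 12778 genes). The background was as low, with 0.00783% of all genes called in CoCM against Ctrl and 0% in either cell group. The values of no member were free of overlap with Ctrl (0 of 9 in each treated group, where, in the order CoCM, i.p. and i.v., 1.38%, 0.0470% and 0.110% of all genes were). At an unadjusted p under 0.05, 1 member was found in CoCM (Srxn1), where 11.9% of all genes were, 0 in i.p. ABCB5+, where 1.77% were, and 0 in i.v. ABCB5+, where 5.78% were. Across all alternatives and fits with an animal left out the smallest adjusted p of a member was 0.134, for Srxn1 in CoCM with limma voom and quality weights. Several differences near zero took the other sign on the TPM scale, namely those of Keap1 in each treated group, of Txnrd1 and Sod2 in CoCM, of Nfe2l2 in i.p. ABCB5+ and of Nqo1 and Srxn1 in the i.v. ABCB5+ group.

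**Figure D2:**
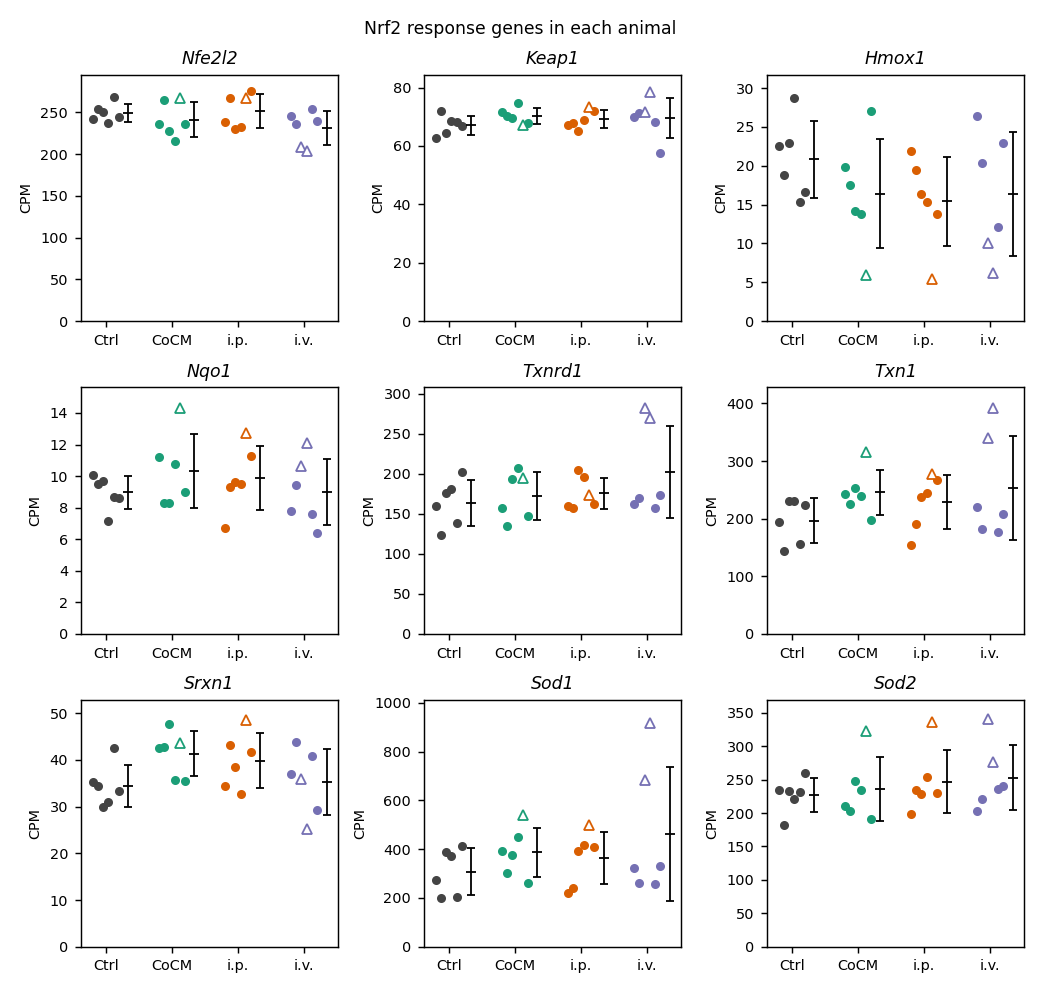
CPM of each member in each animal (axes from 0), by group, with the mean and SD (n = 6) to the right of each group. Open triangles are animals 36, 37, 38 and 39, which lie below all others for Hmox1 (5.45 to 10.1 CPM) and above all others for Sod1 (497 to 917 CPM), Sod2 and Txn1.

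Nfe2l2 was close to level across the groups. It ranged from 236.9 to 268.1 CPM in Ctrl (median 247.6), from 215.7 to 266.9 in CoCM (median 236.2), from 230.6 to 275.1 in i.p. ABCB5+ (median 252.4) and from 204.2 to 253.9 in i.v. ABCB5+ (median 238.1). All 4 ranges overlapped, and the lowest pair of animals were i.v. ABCB5+ 37 and 36. The log2 fold change against Ctrl was −0.048 in CoCM (95% interval −0.20 to 0.10), 0.013 in i.p. ABCB5+ (−0.14 to 0.16), and −0.11 for i.v. ABCB5+ (−0.26 to 0.042). The intervals of Nfe2l2 were narrow, and the one furthest from zero ended at −0.26. Keap1 ran from 62.56 to 71.87 CPM in Ctrl, 67.14 to 74.59 in CoCM, 65.25 to 73.28 in i.p. ABCB5+ and 57.54 to 78.63 in i.v. ABCB5+. Its log2 fold changes were 0.065 (−0.059 to 0.19), 0.043 (−0.081 to 0.17) and 0.051 (−0.073 to 0.17), with adjusted p-values from edgeR of 0.614, 0.978 and 0.750. On the log2(TPM + 1) scale the same 3 differences of Keap1 were −0.041, −0.018 and −0.037.

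Srxn1 had the lowest p-value of the members. It ranged from 29.9 to 42.62 CPM in Ctrl (median 33.88), from 35.56 to 47.62 in CoCM (median 42.69), from 32.66 to 48.57 in i.p. ABCB5+ (median 40.07) and from 25.09 to 43.71 in i.v. ABCB5+ (median 36.43). In CoCM 6 of 6 animals were above the Ctrl mean and 3 above its highest animal, Ctrl 23, so the ranges overlapped. The log2 fold change in CoCM was 0.26 ± 0.13 (SE; 95% interval 0.0015 to 0.52), with an edgeR p of 0.0488 and an adjusted p of 0.417. An exact two-sided permutation test of mean log2 CPM gave an unadjusted p of 0.0195, where 0.00216 is the smallest the design allows. Without animals 36 to 39 the difference was 0.24, with an interval from −0.0047 to 0.48 and an adjusted p of 0.298. It was 0.21 (−0.051 to 0.47) in i.p. ABCB5+, and in the i.v. ABCB5+ group 0.036 (−0.23 to 0.30).

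The thioredoxin pair was next. Txn1 ranged from 143.7 to 231.4 CPM in Ctrl (median 208.7), from 198.3 to 316.2 in CoCM (median 241.5), from 154.4 to 278.1 in i.p. ABCB5+ (median 240.7) and from 176.4 to 391.3 in i.v. ABCB5+ (median 213.6). In CoCM 6 of 6 animals were above the Ctrl mean and 4 were above its highest animal. The log2 fold change in CoCM was 0.32 ± 0.19 (SE; interval −0.077 to 0.73; adjusted p 0.477 in edgeR), and the exact permutation p was 0.0498 before any adjustment for the 9 members. Without animals 36 to 39 it was 0.23 (−0.063 to 0.52). The difference in i.v. ABCB5+ was 0.36 (−0.037 to 0.77) with all animals and −0.0021 (−0.32 to 0.31) without those 4, 2 of which are i.v. ABCB5+ animals. Txnrd1 ranged from 123.6 to 201.9 CPM in Ctrl, 134.5 to 207.6 in CoCM, 157.2 to 204.2 in i.p. ABCB5+ and 157.4 to 282.6 in i.v. ABCB5+. I.v. ABCB5+ animals 36 and 37, at 282.6 and 269.6 CPM, were above every other animal, and the remaining 4 of that group lay inside the Ctrl range. The Txnrd1 difference in i.v. ABCB5+ was 0.31 ± 0.16 (SE; −0.018 to 0.63; adjusted p 0.673) with all animals and 0.015 (−0.26 to 0.29) without the 4. The differences in CoCM and i.p. ABCB5+ were 0.076 and 0.10.

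For the superoxide dismutases the i.v. ABCB5+ group had the largest difference, and it was carried by the same animals. Sod1 ranged from 200.3 to 413.5 CPM in Ctrl (median 322.4), from 259.5 to 541.1 in CoCM (median 384.3), from 222.3 to 497.1 in i.p. ABCB5+ (median 400.8) and from 259.1 to 916.7 in i.v. ABCB5+ (median 327.1). The highest animal of each treated group was 1 of the 4, namely 39 in CoCM, 38 in i.p. ABCB5+, and 37 for i.v. ABCB5+. The log2 fold change in i.v. ABCB5+ was 0.58 ± 0.30 (SE; −0.046 to 1.21; p 0.0675, adjusted p 0.673, edgeR), and −0.072 (−0.55 to 0.41) without animals 36 to 39. In CoCM it was 0.33 (−0.30 to 0.96) and in i.p. ABCB5+ 0.24 (−0.39 to 0.86), and 0.20 and 0.13 without the 4. Sod2 ranged from 182.8 to 259.9 CPM in Ctrl, 191.7 to 323.4 in CoCM, 198.8 to 336.1 in i.p. ABCB5+ and 203.6 to 340.0 in i.v. ABCB5+. Its log2 fold changes were 0.051, 0.12 and 0.16 with adjusted p-values from edgeR of 0.878, 0.978 and 0.709, and −0.073, 0.017 and −0.015 without the 4 animals.

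Hmox1 was the member whose mean was lower in each treated group. It ranged from 15.27 to 28.79 CPM in Ctrl (median 20.69), from 5.917 to 27.04 in CoCM (median 15.88), from 5.451 to 21.89 in i.p. ABCB5+ (median 15.9) and from 6.227 to 26.42 in i.v. ABCB5+ (median 16.29). The lowest animals were 38, 39, 37 and 36, and no treated animal exceeded the highest Ctrl animal. The log2 fold changes were −0.34 (−1.05 to 0.37) in CoCM, −0.43 (−1.14 to 0.28) in i.p. ABCB5+, and −0.35 (−1.06 to 0.37) for i.v. ABCB5+, with adjusted p-values from edgeR of 0.638, 0.978 and 0.717. Without the 4 animals they were −0.18 (−0.62 to 0.27), −0.25 (−0.70 to 0.19) and −0.026 (−0.50 to 0.45). Nqo1 ranged from 7.181 to 10.08 CPM in Ctrl, 8.304 to 14.34 in CoCM, 6.736 to 12.72 in i.p. ABCB5+ and 6.41 to 12.08 in i.v. ABCB5+. Its log2 fold changes were 0.20 (−0.15 to 0.55), 0.13 (−0.22 to 0.48) and 0.0037 (−0.35 to 0.36), and 0.078, 0.052 and −0.20 without the 4.

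**Figure D3:**
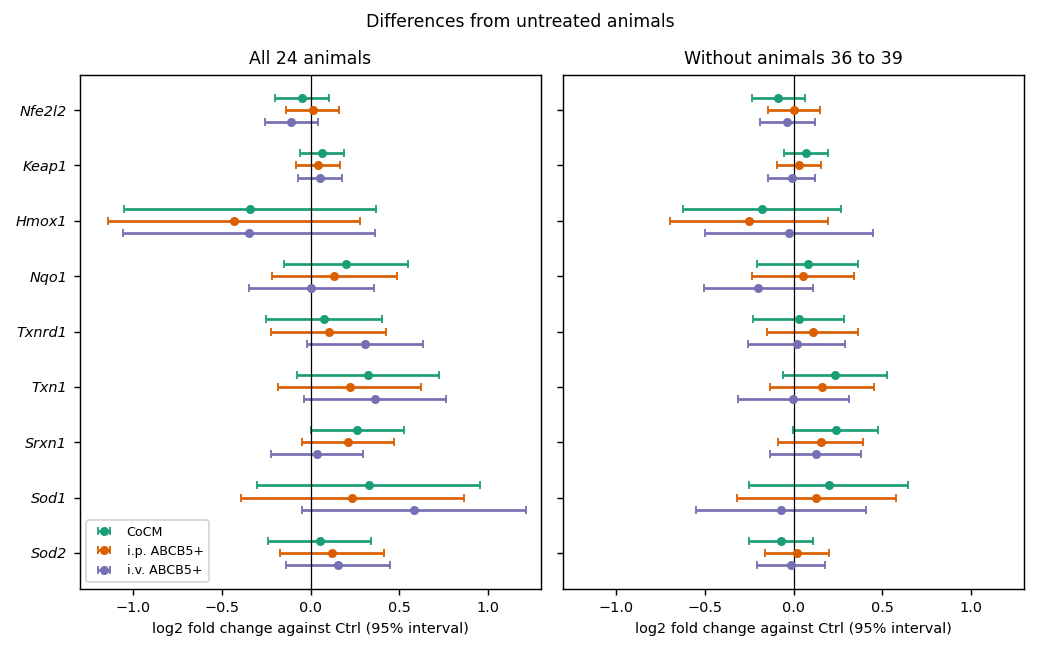
Log2 fold change of each member against Ctrl with its 95% interval (edgeR) for each treated group, with all 24 animals on the left and without animals 36 to 39 on the right. The i.v. ABCB5+ values of Sod1, Txn1 and Txnrd1 move from 0.58, 0.36 and 0.31 to −0.072, −0.0021 and 0.015, and the interval of Srxn1 in CoCM has its lower end within 0.005 of zero in both panels.

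The remaining contrasts asked whether the route of the cells, or cells as against conditioned medium, made a difference. No member was called between i.p. and i.v. ABCB5+ (background 0%; 2.14% of genes at an unadjusted p under 0.05), between CoCM and the average of both cell groups (0%; 7.0%), between all 18 treated animals and Ctrl (0%; 6.56%) or in the F-test over the 4 groups (0%; 4.71%). At an unadjusted p under 0.05, 0 of 9 members were found in each of these 4 tests. The largest route difference was that of Sod1, −0.35 (−0.98 to 0.28) for i.p. minus i.v., which was 0.20 without the 4 animals. Nfe2l2 was 0.12 higher in i.p. ABCB5+ (−0.029 to 0.27; p 0.110, adjusted p 0.9999, edgeR), and Srxn1 0.17 higher (−0.087 to 0.44). Without the 4 animals these 2 differences were 0.036 and 0.027. Between CoCM and the cells the members lay between −0.13 for Txnrd1 and 0.14 for Srxn1, which were −0.035 and 0.098 without the 4 animals. Over all treated animals, 16 of 18 were above the Ctrl mean for Keap1, 15 of 18 for Srxn1 and 14 of 18 for Txn1. For Hmox1 14 of 18 were below it. No share of all genes is given here for such counts. The log2 fold changes of Srxn1, Txn1 and Hmox1 were 0.17, 0.30 and −0.37, with edgeR adjusted p-values of 0.577, 0.577 and 0.588. They were 0.17, 0.13 and −0.15 without the 4 animals. That of Keap1 was 0.053 (edgeR adjusted p 0.641), and 0.029 without them. These contrasts share animals with those above, so their values do not add independent support.

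Within the 4 animals the members split. On the CPM scale 3 of 9 members, Sod1, Sod2 and Txn1, were higher in each of the 4 animals than in any of the other 20, and 1 of 9, Hmox1, was lower, where 10% and 14.2% of all genes tested were higher and lower in the same way. On the TPM scale 0 of 9 were higher (3.55% of all genes) and Hmox1 was again lower (22.8%). Txn1 was 316.2, 278.1, 340.3 and 391.3 CPM in animals 39, 38, 36 and 37, with 268.0 as the highest of the others. Sod2 was 323.4, 336.1, 340.0 and 276.4 CPM in that order, with 259.9 as the highest of the others. Nqo1 was 14.34, 12.72, 10.64 and 12.08 CPM in that order, with 11.25 as the highest of the others, so animal 36 lay inside their range. Keap1 was 67.14, 73.28, 71.6 and 78.63 CPM, with 74.59 as the highest of the others. Srxn1 did not follow, with 43.58, 48.57, 35.99 and 25.09 CPM, which spans both ends of its range. Nfe2l2 split by animal as well, with 266.9 and 266.7 CPM in animals 39 and 38, and 208.2 and 204.2 CPM, the lowest of all, in animals 36 and 37. These 4 libraries also had the lowest injured tubule and macrophage marker sums given above, and the part of either in the levels of the members was not tested.

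The other 20 animals showed which members moved together from kidney to kidney. Of the 36 pairs of members, 6 had a Pearson r above 0.5 and 2 below −0.5 after removing group means from log2 CPM (n = 20 animals, median r −0.051), values that describe these libraries and share their scaling. Txn1 and Sod1 were the closest pair, with r = 0.94 (Spearman 0.89) and 0.93 without the 2 animals farthest from the median. Txnrd1 followed Sod1 at 0.81, Sod2 at 0.72 and Txn1 at 0.67, and Sod1 followed Sod2 at 0.61. Txn1 and Sod2 were at 0.57, and at 0.26 without the 2 farthest animals. Of these members, Txnrd1 and Sod2 are those whose promoter windows are printed above, and Txn1 and Sod1 had no match in theirs. Nfe2l2 ran opposite to Txnrd1, with r = −0.73 (−0.71 without the 2 farthest), and Hmox1 opposite to Sod2, with r = −0.51 (−0.44 without the 2 farthest). Nqo1, the member most often taken as a readout of Nrf2, had r = 0.04 with Txnrd1 and 0.08 with Nfe2l2. Over all 24 animals, with group means removed, these were 0.42 and −0.038. With Txn1, Sod1, Sod2 and Hmox1, Nqo1 had r = 0.24, 0.23, 0.11 and −0.29 over the 20. Over all 24 these were 0.63, 0.62, 0.62 and −0.73.

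**Figure D4:**
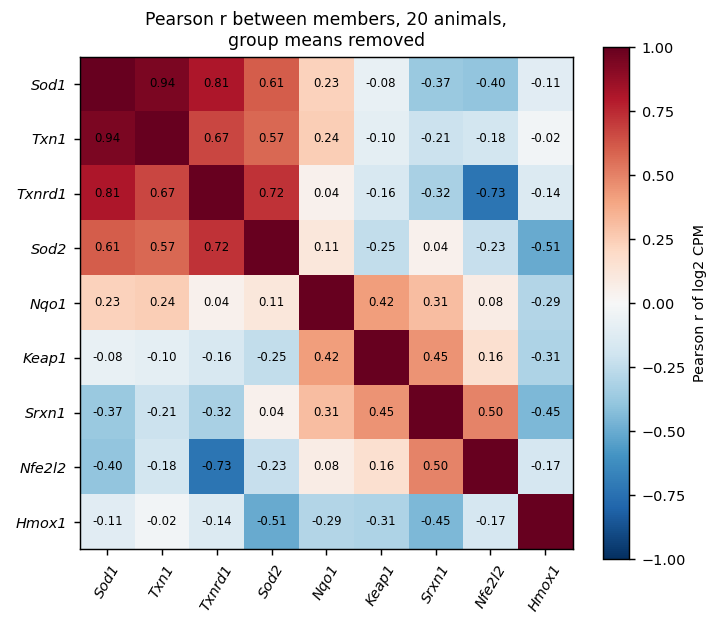
Pearson r of log2 CPM between members over the 20 animals other than 36 to 39, with group means removed. Sod1, Txn1, Txnrd1 and Sod2 form a block with r from 0.57 to 0.94, and Nfe2l2 and Txnrd1 have the lowest r, −0.73.

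The members also followed different cell type markers across the same 20 animals, again as a description with group means removed. Hmox1 followed the macrophage marker sum, with r = 0.87 (Spearman 0.82, and 0.83 without the 2 farthest animals), the fibroblast sum at 0.81 and the lymphocyte sum at 0.80. Macrophages take up red cells and are known for high Hmox1, while injured tubules can also make it. Hmox1 moved as well with the library total, with r = 0.72 against log2 total count. Txnrd1, Sod1, Txn1 and Sod2 followed the proximal tubule sum instead, with r = 0.86, 0.82, 0.69 and 0.61. With the thick ascending limb sum the same members had r = 0.53, 0.62, 0.50 and 0.61, and Hmox1 had −0.73. The relations named are some of 126 between the members and 14 measures. Txn1 and Sod1 had r = −0.71 and −0.59 against a measure of length bias, the slope of log2 CPM on transcript length in each library, and both transcripts are short. Nfe2l2 followed the collecting duct principal cell sum (Aqp2, Aqp3, Avpr2 and Scnn1g), with r = 0.82 (0.75 without the 2 farthest). The part of the mix of cells, of depth or of length bias in these levels was not tested.

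**Figure D5:**
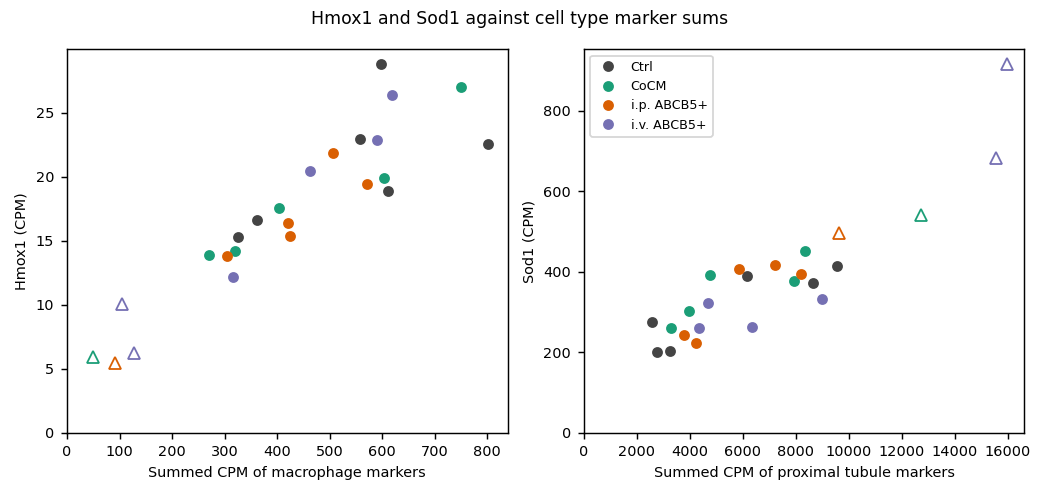
Hmox1 (CPM) against the summed CPM of 7 macrophage markers, and Sod1 (CPM) against the summed CPM of 6 proximal tubule markers, 1 point per animal coloured by group, with open triangles for animals 36 to 39. The triangles lie at the low end for macrophage markers (49.69 to 127.6) and at the high end for proximal tubule markers (9631 to 15960), and the other 20 animals spread along the same direction.

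The genes whose pattern over these 20 animals was most like that of each member differed in kind. Those of Hmox1 were Heph, a copper ferroxidase that helps export iron, and Slamf9, a receptor of myeloid cells, with r = 0.92 and 0.90 (0.91 and 0.89 over all 24). Those of Nfe2l2 were Klkb1, plasma prekallikrein, and Aqp3, a water channel of the collecting duct, with r = 0.83 and 0.82, which were 0.60 and 0.51 over all 24. Txnrd1 was matched by Paqr9 and Sfxn1, a mitochondrial serine carrier (0.96 and 0.95), Txn1 by Glrx5 and Grpel1, both of mitochondria (0.96 and 0.96), and Sod1 by Iah1 and Lhpp (0.99 and 0.97). The number of genes with r above 0.8 was 724 for Sod1, 512 for Txnrd1, 484 for Txn1 and 151 for Hmox1. It was 30 for Sod2, 7 for Srxn1, 2 for Nfe2l2, 1 for Nqo1 and 0 for Keap1. Sod2 was matched by Cul2 and Tm9sf2 (0.87 and 0.87), Srxn1 by Rnf225 and Rbpjl (0.85 and 0.84), Nqo1 by Ccdc124 and G4 (0.83 and 0.79) and Keap1 by Wdsub1 and Gtpbp6 (0.78 and 0.74).

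The wider pathway was read through 8 lists, of which 84 genes were tested. They cover the regulators and partners of Nrf2, glutathione, NADPH supply, thioredoxins and peroxiredoxins, superoxide and peroxide removal, heme and iron, detoxification and the sources of superoxide. Of the 84 genes 0 were called in any treated group against Ctrl. At an unadjusted p under 0.05 the counts were 3 higher and 5 lower in CoCM, 0 and 0 in i.p. ABCB5+, and 8 higher and 2 lower in i.v. ABCB5+. Without the 4 animals they were 6 and 7 in CoCM, 0 and 0 in i.p. ABCB5+, and 1 and 0 in i.v. ABCB5+. For all genes these shares were 5.96% higher and 5.96% lower in CoCM, 1.26% and 0.509% in i.p. ABCB5+, and 4.44% and 1.34% in i.v. ABCB5+. Of the 12771 genes tested both with and without the 4 animals, 927 were higher and 1240 lower in CoCM without them. The numbers were 91 and 87 in i.p. ABCB5+, and 95 and 57 in i.v. ABCB5+. The median log2 fold change of the 84 genes was 0.051, 0.029 and 0.10 in the 3 comparisons, beside 0.0088, 0.0037 and 0.013 for all genes tested. Without the 4 animals it was 0.024, 0.0079 and −0.012, beside −0.0045, 0.00037 and −0.0041.

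In CoCM the genes with the smallest p-values were Abcc3, an efflux pump for conjugates, and Prdx2, a cytosolic peroxiredoxin, among those higher, and Xdh, xanthine dehydrogenase, and Slc40a1, the iron exporter ferroportin, among those lower. Abcc3 was at 66.4 ± 8.90 CPM in CoCM against 52.0 ± 5.52 CPM in Ctrl (SD, n = 6 each), a log2 fold change of 0.35 ± 0.10 (SE) with an edgeR adjusted p of 0.255, above the Ctrl mean in 6 of 6 animals. Its difference was 0.39 without the 4 animals. Prdx2, whose overoxidized form is a substrate of Srxn1, was at 326 ± 26.1 CPM in CoCM against 278 ± 28.04 in Ctrl (0.23 ± 0.10, edgeR adjusted p 0.396). Xdh was at 139 ± 47.2 CPM in CoCM against 218 ± 44.5 in Ctrl (−0.65 ± 0.25, edgeR adjusted p 0.368), with 0 of 6 animals above the Ctrl mean. Slc40a1 differed by −0.19 in CoCM and by −0.19 in i.v. ABCB5+, with edgeR adjusted p-values of 0.379 and 0.673. The other 4 genes with an unadjusted p under 0.05 in CoCM, Gstt2 on the higher side (0.54) and Abcc4, Sesn3 and Cybb on the lower (−0.42, −0.68 and −1.24), are named after their values were seen. In i.p. ABCB5+ the genes were Ugt1a6 (0.54) and Prdx2 (0.17) on the higher side and Xdh (−0.44) and Pon2 (−0.12) on the lower, each with an edgeR adjusted p of 0.978. Without the 4 animals these differences were 0.27, 0.11, −0.30 and −0.12.

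In i.v. ABCB5+ the differences of the genes on the higher side were near zero without animals 36 to 39, and those of the genes on the lower side were smaller. Blvra, the biliverdin reductase that follows Hmox1 in heme breakdown, differed by 1.10 ± 0.41 (SE) and Gss, glutathione synthetase, by 1.45 ± 0.57, and both had an edgeR adjusted p of 0.673. Without the 4 animals these differences were 0.016 and 0.062. Pon2, a paraoxonase, differed by −0.17 and was −0.12 without them, and the difference of Slc40a1 was also −0.12 without them. In the 4 animals 20 of the 84 genes were above all other animals on the CPM scale and 7 below, shares of the lists read against 10% and 14.2% of all genes. Those above included Blvra, Hmox2 and Fech of heme metabolism, Gsr, Gpx1 and Gsta1 of glutathione use, and Prdx3, Prdx5, Txn2 and Txnrd2 of the mitochondrial and organelle thioredoxin system. Those below included Cybb, Ncf1 and Ncf4, subunits of the phagocyte NADPH oxidase, with Glrx, Gpx2 and Akr1b8.

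The list of sources of superoxide had medians below zero when all animals were used. In this list 7 of 7 genes tested had a log2 fold change below zero in CoCM and in i.p. ABCB5+, and 6 of 7 in i.v. ABCB5+. Of all 12778 genes tested, 6209, 6260 and 6060 were below zero in the same order. The medians of the list were −0.27, −0.30 and −0.30. Of the list, 2 genes in CoCM had an unadjusted p under 0.05, Xdh and Cybb, where 5.96% of all genes were lower at such a p. None of the 7 was called. Cybb, the catalytic subunit of the phagocyte oxidase, differed by −1.24 ± 0.57 (SE) with an edgeR adjusted p of 0.406. Without animals 36 to 39 the list's medians were −0.066, −0.21 and 0.045. The 4 animals with the lowest macrophage sums were also those with the lowest Cybb, Ncf1 and Ncf4, and the part of the macrophage content was not tested. Glutathione synthesis and use had medians of 0.18, 0.15 and 0.31, which were 0.29, 0.063 and −0.049 without the 4. The list of regulators and partners of Nrf2 had medians of −0.041, −0.042 and 0.040.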

How the data were processed

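RNA of 24 left kidneys was sequenced on a BGISEQ-500. For each animal the authors deposited estimated counts, not normalized, and TPM values, scaled to transcript length and library, for 17334 Entrez genes. The TPM values deposited by the authors summed to between 964191 and 976409 per sample. Trim Galore 0.6.4, kallisto 0.4.6 and rn6 are named in the submitters' processing notes, and the paper mentions gene models of the human genome. How transcripts were summed to genes is not given in the sources used here. Symbols came from a RefSeq table of GRCr8 (17179 identifiers matched).

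Estimated counts were rounded, filtered with filterByExpr by group (12778 genes kept), scaled by TMM and fitted over all 24 samples in edgeR 4.0.16 (R 4.3.3), in place of the study's DESeq2, with the quasi-likelihood F-test and Benjamini-Hochberg adjustment at 0.05. Each SE was obtained by dividing the absolute log2 fold change by √F. Single members were also compared by a two-sided exact permutation test of log2 CPM (prior count 2). The fit was tested on simulated data. Groups came from the labels, and each replicate is 1 animal. No 2 libraries of a group agreed within sampling noise. At the depth of 9304630 to 14125457 estimated counts, counting error weighs most on members with few counts, such as Nqo1 (98 to 144 in Ctrl).

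The 9 members were all named in every comparison with Ctrl. From the wider lists up to 2 genes per direction with the smallest p were named in each comparison with Ctrl, and for each member the 2 genes with the highest r over 20 animals. The members and the lists were chosen with earlier results of these data known. The alternatives were median-ratio factors, no filter, at least 10 counts in every sample, DESeq2 1.42.0, limma 3.58.1 voom with quality weights, a fit of the compared groups alone, limma on log2(TPM + 1), log2(TPM + 0.1) and log2(TPM + 1) without the low-value filter, 1 animal left out, and animals 36 to 39 left out.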

Additional observations from a re-analysis of the deposited data

How the results depend on the processing

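The number of members called was 0 in every comparison under every alternative and every fit with an animal left out. The number of all genes called in CoCM against Ctrl was 1 (Ovca2) and became 79 with DESeq2, 183 with voom and quality weights, and 0 with the compared groups alone, with each of the 3 TPM fits and without animals 36 to 39, and 0 to 31 with an animal left out, the 31 without Ctrl animal 23. It went from 0 to 1 with DESeq2 in either cell group against Ctrl, to 2 with DESeq2 in i.p. against i.v. ABCB5+, to 3 with DESeq2 and 2 with voom in CoCM against the cells, and to 10 with DESeq2 and 1 with voom in the F-test, where leaving out an animal gave 0 to 1. Of 531 log2 fold changes of members recomputed under an alternative 459 kept their direction and 72 changed sign, as did 48 of 810 with an animal left out. Since no adjusted p was under 0.05, these signs are those of differences not told from zero, and the cause was not tested. The median log2 fold change of all genes in CoCM against Ctrl was 0.009 in the main fit. In the TPM fits it was as low as −0.111, with log2(TPM + 0.1), so signs near zero there are relative to that shift.

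On the TPM scale, with log2(TPM + 1) (with and without the low-value filter) and then log2(TPM + 0.1), the values that changed sign were −0.041 and −0.042 for Keap1, −0.029 and −0.030 for Txnrd1 and −0.071 and −0.071 for Sod2 in CoCM against Ctrl. They were −0.050 and −0.051 for Nfe2l2 and −0.018 and −0.018 for Keap1 in i.p. ABCB5+ against Ctrl. They were −0.037 and −0.038 for Keap1, −0.092 and −0.10 for Nqo1 and −0.058 and −0.064 for Srxn1 in i.v. ABCB5+ against Ctrl, and −0.032 and −0.033 for Keap1 over all treated. They were 0.020 and 0.020 for Keap1 in i.p. against i.v. ABCB5+, and −0.034 and −0.034 for Nfe2l2 and −0.013 and −0.014 for Keap1 in CoCM against the cells.

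Without animals 36 to 39 the values that changed sign were −0.073 for Sod2 in CoCM against Ctrl, −0.012 for Keap1, −0.20 for Nqo1, −0.0021 for Txn1, −0.072 for Sod1 and −0.015 for Sod2 in i.v. ABCB5+ against Ctrl, and −0.023 for Nqo1 and −0.024 for Sod2 over all treated. They were 0.041 for Keap1, 0.092 for Txnrd1, 0.16 for Txn1, 0.20 for Sod1 and 0.032 for Sod2 in i.p. against i.v. ABCB5+, and −0.069 for Nfe2l2, −0.038 for Hmox1 and 0.17 for Sod1 in CoCM against the cells. With voom and quality weights they were −0.036 for Nfe2l2 in i.p. ABCB5+, −0.048 for Nqo1, −0.043 for Txn1 and −0.086 for Sod1 in i.v. ABCB5+, 0.13 for Txnrd1, 0.23 for Txn1, −0.054 for Srxn1, 0.31 for Sod1 and 0.030 for Sod2 in i.p. against i.v. ABCB5+, and −0.035 for Nfe2l2, −0.052 for Hmox1 and 0.18 for Sod1 in CoCM against the cells. Nfe2l2 in i.p. ABCB5+ was −0.00063 with median-ratio factors, −0.0045 with at least 10 counts in every sample and −0.0012 with DESeq2, and Nqo1 in i.v. ABCB5+ was −0.0016, −0.021 and −0.0065 with these and −0.011 with no filter. Nfe2l2 in CoCM against the cells was −0.0041 with the compared groups alone.

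With an animal left out, signs changed within these ranges: Sod2 in CoCM, −0.062 to 0.10; Nfe2l2 in i.p. ABCB5+, −0.025 to 0.037; Nqo1 and Srxn1 in i.v. ABCB5+, −0.11 to 0.085 and −0.050 to 0.11. In i.p. against i.v. ABCB5+ they were −0.057 to 0.030 for Keap1, −0.25 to 0.12 for Hmox1, −0.22 to 0.023 for Txn1 and −0.13 to 0.066 for Sod2. In CoCM against the cells they were −0.041 to 0.031 for Nfe2l2, −0.0064 to 0.047 for Keap1, −0.15 to 0.22 for Hmox1, −0.044 to 0.12 for Txn1 and −0.19 to 0.084 for Sod1. No paired analysis was possible because no animal number occurs in more than 1 group. Depth limits Hmox1 and Nqo1 the most, with estimated counts down to 45 and 84.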

Other observations

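The lists of the wider pathway not described above gave no called gene against Ctrl (edgeR quasi-likelihood F-test). The thioredoxins and peroxiredoxins (14 genes) had median log2 fold changes of 0.12, 0.13 and 0.17 in the CoCM, i.p. and i.v. groups, and 0.033, 0.071 and −0.030 without animals 36 to 39. The heme and iron targets (8 genes) had medians of 0.14, 0.068 and 0.15, and 0.057, 0.0085 and −0.057 without those animals. With all animals 7 of 8 genes were above zero in each of the 3 groups, where 6569, 6518 and 6718 of all 12778 genes were. The detoxification targets (16 genes) had medians of 0.079, 0.070 and 0.095, and 0.071, 0.043 and 0.070 without them. The genes of NADPH supply (8 genes) had medians of 0.0092, −0.024 and 0.10, and −0.0037, −0.031 and −0.056 without them. The 5 genes of superoxide and peroxide removal had medians of 0.089, 0.030 and 0.24, and 0.057, −0.026 and −0.12 without them. These comparisons share the Ctrl animals. In each group of 6 the highest and lowest animal of each member was compared with its neighbour by Dixon's criterion. Of 36 sets of values 0 held an animal past it, where 1.8 would be reached by chance if the sets were independent. The sets share animals, so they are not independent. The criterion also cannot mark 2 animals that lie apart together, as i.v. ABCB5+ animals 36 and 37 did for Sod1 (683.1 and 916.7 CPM). It therefore does not show that no animal stood apart.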
